A study of Heliconius erato cyrbia and Heliconius erato demophoon with 32 samples.

Results

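The annotated loci of chromosome 20 were the rows of the Heliconius erato count table whose identifier holds a gene model of a chromosome 20 scaffold (evm.TU.Herato20). There were 703 such loci among 24118 loci in the table, and among 13055 loci with any annotation. All 703 lay on 1 scaffold, and their identifiers covered gene models 1 to 748, which are numbered along it; 43 rows joined more than 1 gene model, and each is placed here by its first. RNA was sequenced from pupal wings of 16 animals in 32 libraries. H. e. cyrbia is iridescent blue and came from western Ecuador, H. e. demophoon lacks iridescence and came from Panama, and both were kept as captive populations on Passiflora biflora. Wings were taken at 50% or 70% of pupal development from 4 animals per subspecies and stage, and each animal gave a library of the forewing with the posterior hindwing (the main wing) and a library of the anterior hindwing (the androconial region). This gave 8 groups of 4 libraries, and every animal carried its own individual number in the labels.

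Butterfly wing scales are single cells whose upper surface is built of chitin ridges, and layered ridges that reflect blue light give iridescent colour. The ridges are laid down in the pupa alongside parallel bundles of actin. The pupal stages sampled here span the time in which the scale surface is formed. The crosses of the study placed a locus for blue colour on this chromosome, with its leading marker on the scaffold that holds these loci. The study gives its place by map and marker positions, and the count table holds gene model numbers but no coordinates, so no locus was placed inside or outside its interval here. The identifiers are not paired with gene names or functions in the sources used here, and loci are therefore named by their assembly identifier (MSTRG) and gene model number only.

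The libraries held 9330883 to 68986011 counts, of which 378420 to 2532527 fell on the chromosome 20 loci. A count was present in at least 1 library for 671 of the 703 loci and in every library for 473, and 32 loci had none. Levels are given as CPM, counts scaled to a fixed total with TMM-adjusted library sizes, which are not corrected for transcript length, so an order of loci by CPM is one of reads drawn and not of transcript level. The mean over all libraries was at least 1 CPM for 512 loci, at least 100 CPM for 61 and at least 1000 CPM for 8, and the median over loci with counts was 8.47 CPM, against 5.95 CPM for the 11358 other annotated loci with counts. Reads of adjacent or overlapping loci and of close paralogues could be divided differently by another assembly, and in whole wing tissue fewer cells that express a locus cannot be told apart from less RNA per cell. Chromosome 20 loci took 4.06 to 5.59% of a library's counts at 50% and 2.09 to 3.47% at 70%. The ranges of the stages do not overlap. MSTRG.21215, MSTRG.21222 and MSTRG.21225 (gene models 594, 597 and 598) held 12.4 to 28.8% of the chromosome 20 counts at 50% and 0.484 to 1.00% at 70%. Without these 3 loci the share was 3.26 to 4.73% at 50% and 2.07 to 3.46% at 70%, so that the ranges overlapped.

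Few chromosome 20 loci differed between the subspecies in the main wing. At 50%, 21 of 578 tested loci were called differentially expressed (DE) at a false discovery rate (FDR) under 0.05 in edgeR's quasi-likelihood test, adjusted over all loci of the table, 11 higher and 10 lower in cyrbia. That is 3.63% of those tested, against 9.69% of all tested loci (4.33% higher and 5.36% lower) and 5.76% of all annotated loci. At 70%, 20 of 578 were DE, 11 higher and 9 lower, or 3.46%, against 9.17% of all loci (3.25% higher and 5.92% lower) and 6.06% of the annotated ones. The median log2 fold change of the chromosome 20 loci was 0.10 at 50% and 0.03 at 70%, where that of all loci was 0.08 and 0.00. The sexes were unequal at 70%, where all 4 cyrbia animals and 1 of 4 demophoon animals were male, and adding sex to the model left 9 DE loci at 70% (4 higher, 5 lower), 8 of them among the 20. At 50%, where 2 cyrbia animals and 1 demophoon animal were male, the model with sex gave 18 DE loci, 16 of them among the 21. DESeq2 called 55 loci at 50% and 47 at 70%, including all those of edgeR. Counts from DESeq2 and from the model with sex are given without a share over all loci, here and below. The shares above belong to the edgeR fit without sex, and these counts cannot be set against them. Leaving out demophoon animal 5 left 12 at 50%, and leaving out demophoon animal 15, the male, left 12 at 70%.

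**Figure D1:**
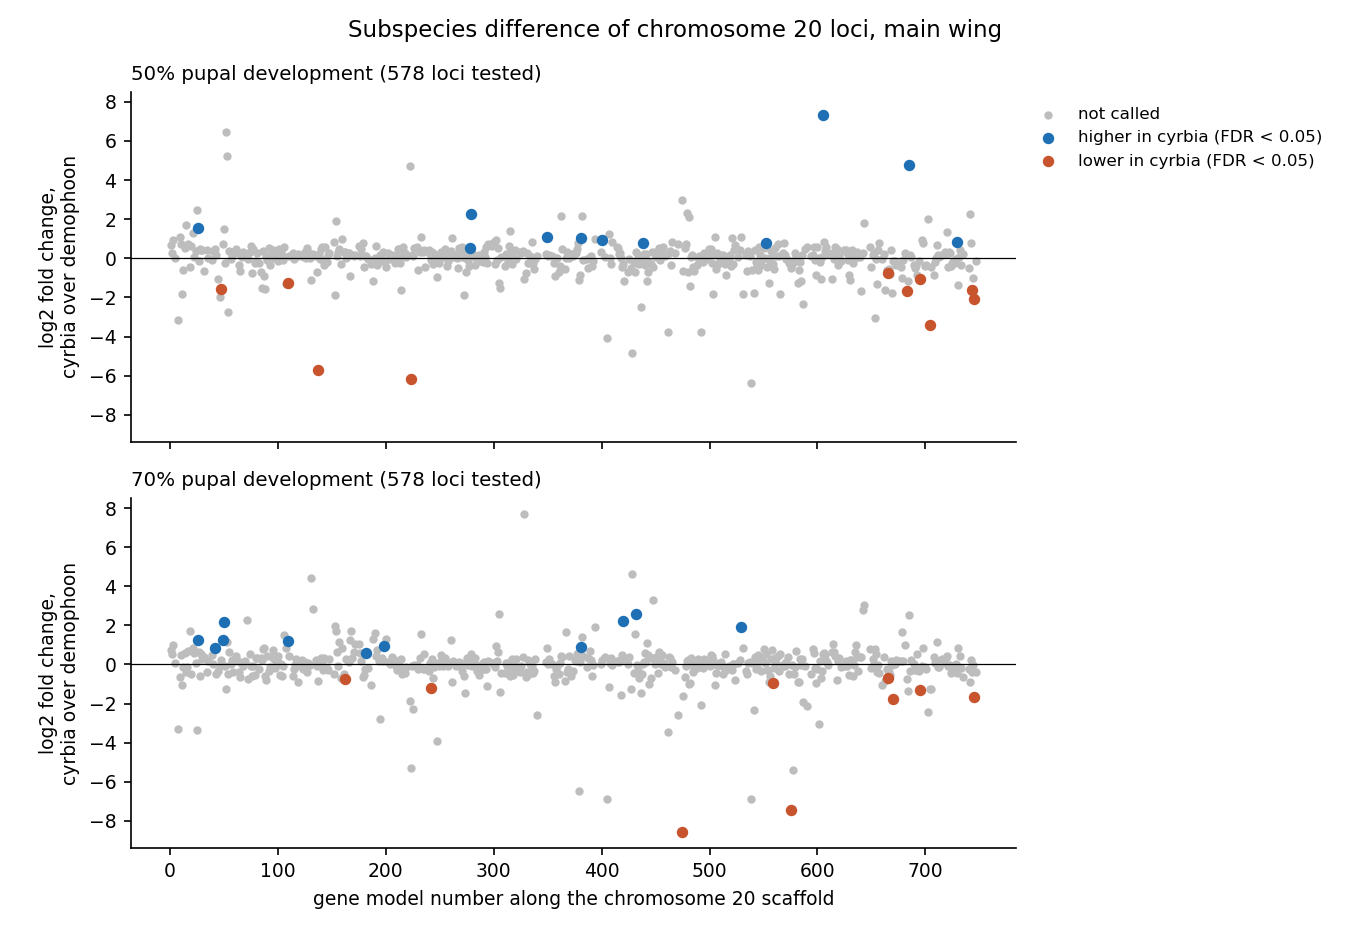
Log2 fold change of cyrbia over demophoon in the main wing for the 578 tested chromosome 20 loci, against gene model number along the scaffold, at 50% (upper) and 70% (lower). Coloured points are the 21 and 20 DE loci, blue higher and orange lower in cyrbia, and grey points were not DE. The DE loci are spread along the scaffold. At 50% each of the last 2 bins of gene models held 3 lower loci, among 38 and 35 tested.

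In the anterior hindwing, which came from the same animals, 30 of 584 tested loci were DE at 50% (14 higher and 16 lower in cyrbia) and 25 at 70% (15 higher and 10 lower). These were 5.14 and 4.28% of the tested loci. Of all loci 11.4% were DE at 50% (4.76% higher and 6.61% lower) and 9.64% at 70% (3.46% higher and 6.18% lower), and of the annotated loci 6.77 and 6.15%. With sex as a covariate the counts were 30 and 11. Without demophoon animal 13 there were 12 at 70%, and without demophoon animal 15 there were 16. Over both wing regions and stages 62 of 586 tested chromosome 20 loci were DE at least once, or 10.6%, against 19.8% of all tested loci. Of the 62, 33 were higher in cyrbia wherever called (53.2%, against 44.5% of all loci called), 28 were lower (45.2%, against 55.2%) and 1 was called in both directions. Of the 62, 37 were called in 1 comparison, 19 in 2, 3 in 3 and 3 in all 4, and the last were 4.84% of the 62, against 15.4% of all loci called. For these joint counts no share over annotated loci was computed. In each single comparison the annotated share was lower than that of all loci.

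The 3 loci DE at both stages in both wing regions were MSTRG.20409, MSTRG.21389 and MSTRG.21467. MSTRG.20409 (gene model 26) was higher in cyrbia, and the others were lower. Its main wing libraries held 34.9, 27.1, 14.7 and 21.4 CPM in cyrbia at 50% and 8.03, 6.78, 8.77 and 10.2 CPM in demophoon. At 70% they held 17.6, 15.9, 25.1 and 26.4 CPM in cyrbia and 8.24, 9.24, 9.27 and 8.82 CPM in demophoon. Every cyrbia library lay above every demophoon library at either stage, with log2 fold changes of 1.55 ± 0.25 (SE), FDR = 0.00151, at 50% and 1.27 ± 0.24 (SE), FDR = 0.00522, at 70%. Within a subspecies its level did not pass the test between stages, with log2 fold changes of -0.20 ± 0.24 (FDR = 0.61) in cyrbia and 0.08 ± 0.24 (FDR = 0.86) in demophoon. In the anterior hindwing the subspecies difference was 1.45 ± 0.29 (SE), FDR = 0.00606, at 50% and 1.24 ± 0.29 (SE), FDR = 0.0154, at 70%. The call at 70% was lost with sex as a covariate, at FDR = 0.0574 in the main wing, and at 0.122 for the anterior hindwing.

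MSTRG.21467 (gene model 745), near the far end of the numbering, was lower in cyrbia. At 50% the main wing libraries held 4.44, 5.17, 6.35 and 3.07 CPM in cyrbia and 23.1, 16.9, 20.7 and 20.8 CPM in demophoon, or 4.76 ± 1.37 and 20.4 ± 2.55 (SD, n = 4). At 70% they held 2.56, 4.30, 2.82 and 2.83 CPM and 8.35, 9.72, 12.3 and 10.1 CPM. No library of one subspecies reached the range of the other, and the log2 fold changes were -2.09 ± 0.24 (SE), FDR = 0.00014, and -1.68 ± 0.24 (SE), FDR = 0.00065. Between the stages the locus fell in demophoon, from 20.4 ± 2.55 to 10.1 ± 1.62 CPM (FDR = 0.00418), while in cyrbia the log2 fold change was -0.60 ± 0.23 (FDR = 0.0732). Both subspecies calls held under every alternative tried, as did those of the anterior hindwing, where the log2 fold changes were -1.95 and -1.32.

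MSTRG.21389 (gene model 695) was also lower in cyrbia and rose between the stages in both subspecies. Main wing libraries at 50% held 2.44, 4.60, 2.50 and 4.40 CPM in cyrbia and 5.61, 6.06, 7.65 and 9.80 CPM in demophoon. At 70% the values were 10.9, 14.4, 11.7 and 11.1 CPM in cyrbia and 34.0, 32.7, 37.1 and 14.1 CPM in demophoon. The groups were apart at 50% but met at 70%, where demophoon animal 16 lay just below the highest cyrbia library. The subspecies difference was -1.06 ± 0.31 (SE), FDR = 0.0425, at 50% and -1.28 ± 0.31 (SE), FDR = 0.0168, at 70%. The call at 50% was lost without cyrbia animal 1 or 3 or demophoon animal 6, 7 or 8, at FDR values of 0.0565 to 0.122, and that at 70% without demophoon animal 15 (FDR = 0.0571). In the anterior hindwing, where the difference at 70% was -1.04 ± 0.25 (SE), FDR = 0.0187, the call was lost without demophoon animal 13 (FDR = 0.0619) and with sex in the model (FDR = 0.0511). With no filter on low counts the main wing call at 50% had FDR = 0.0578. Fitting only the 8 libraries compared gave FDR = 0.0891 for it and 0.0673 for the anterior hindwing at 70%. The rise from 50% to 70% was 1.79 ± 0.31 (SE), FDR = 0.00055, in cyrbia and 2.02 ± 0.31 (SE), FDR = 0.00019, in demophoon.

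**Figure D2:**
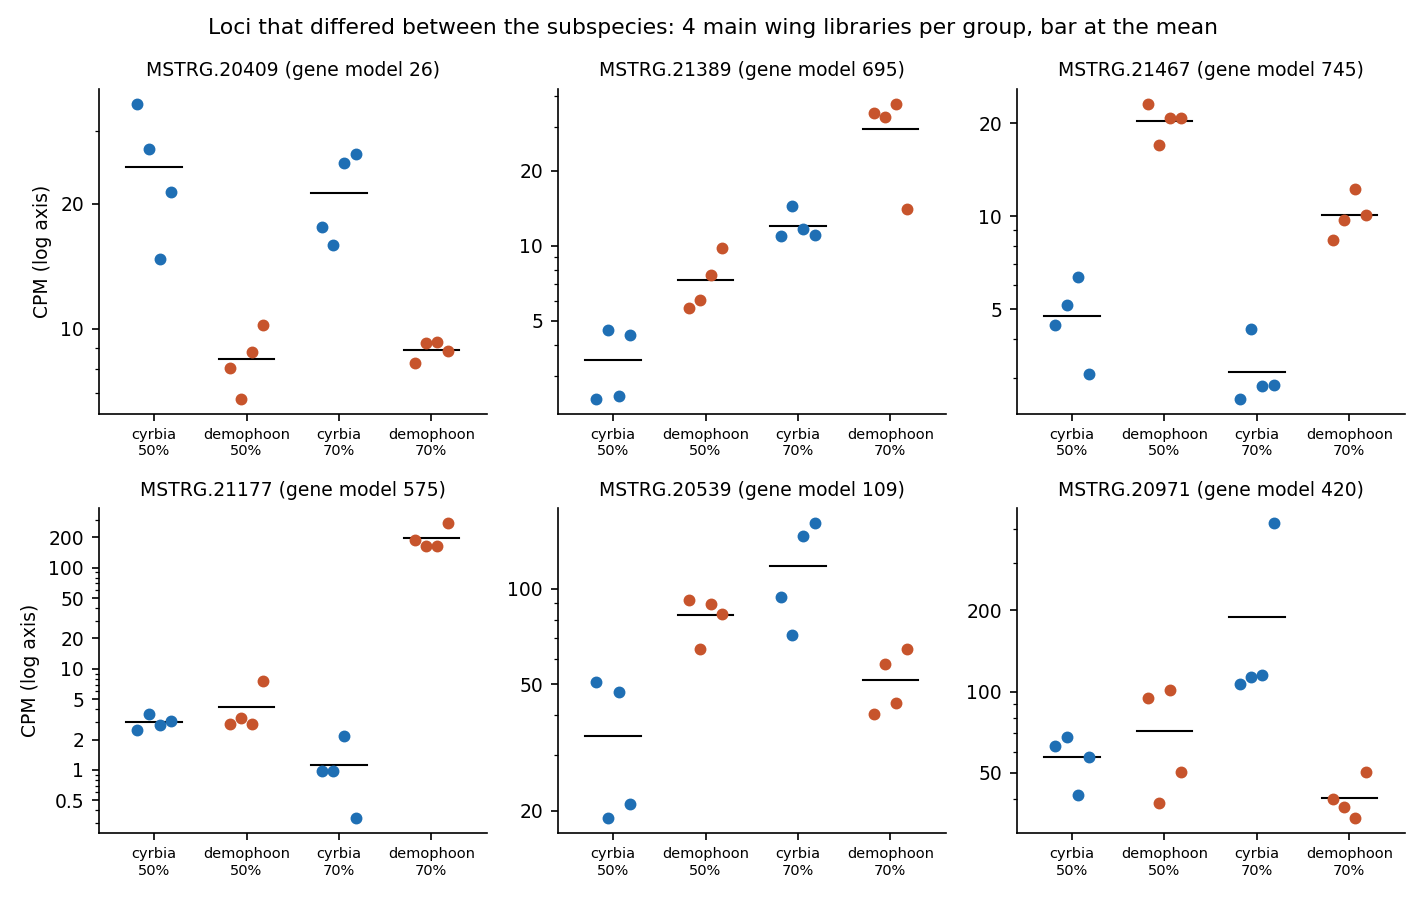
CPM (log axis) of 6 chromosome 20 loci in the 16 main wing libraries; each point is a library, bars are group means, blue is cyrbia and orange demophoon. MSTRG.20409, MSTRG.21389 and MSTRG.21467 kept 1 direction at both stages, MSTRG.21177 was high only in the 4 demophoon libraries at 70% among these groups, MSTRG.20539 changed direction between stages, and MSTRG.20971 had 1 cyrbia library at 420 CPM.

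MSTRG.21177 (gene model 575) was the single chromosome 20 locus whose subspecies difference changed between stages in the main wing at FDR under 0.05. At 50% its main wing libraries held 2.46, 3.55, 2.78 and 3.07 CPM in cyrbia and 2.83, 3.29, 2.85 and 7.65 CPM in demophoon. At 70% cyrbia held 0.980, 0.977, 2.18 and 0.335 CPM and demophoon 188, 163, 165 and 278 CPM. In the main wing the subspecies were close at 50% and far apart at 70%, when the lowest demophoon library lay above every library of the other main wing groups. Its subspecies difference was -7.46 ± 0.56 (SE), FDR = 3.3e-06, at 70% and -0.48 ± 0.43 (SE), FDR = 0.54, at 50%. On the log2 scale the locus rose between the stages in demophoon by 5.58 ± 0.51 (SE), FDR = 1.3e-06, and in cyrbia it changed by -1.40 on the log2 scale (FDR = 0.0314). The interaction of subspecies and stage was -6.98 ± 0.66 (SE), FDR = 0.00039, and it held under all 21 alternatives. This was 1 of 578 chromosome 20 loci, where edgeR gave an interaction call to 0.0517% of all tested loci. DESeq2 called 12 chromosome 20 loci, for which no share over all loci is given. Anterior hindwings at 70% held 0.940 ± 0.686 CPM in cyrbia and 184 ± 90.7 CPM in demophoon, and the interaction was -5.51 ± 1.12 (SE), FDR = 0.0668. At 50% the subspecies difference in the anterior hindwing was -2.055 on the log2 scale and did not pass the test (FDR = 0.0958). There edgeR called 0 of 584 chromosome 20 loci for the interaction (0.188% of all loci), 54 (9.25%, against 10.8% of all tested loci) had an unadjusted p under 0.05, and DESeq2 called 17.

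MSTRG.20539 (gene model 109) was the chromosome 20 locus called in opposite directions at the 2 stages, and was singled out after its values were seen. In the main wing at 50%, cyrbia libraries held 50.9, 19.0, 47.2 and 20.9 CPM and demophoon libraries 92.3, 64.8, 89.3 and 83.2 CPM. At 70% cyrbia held 94.1, 71.4, 146 and 161 CPM and demophoon 40.4, 58.0, 43.9 and 64.6 CPM. Cyrbia was thus below demophoon at 50% and above it at 70% with no overlap, by -1.25 ± 0.33 (SE), FDR = 0.0296, and 1.20 ± 0.33 (SE), FDR = 0.0347. The locus rose between stages in cyrbia, by 1.78 ± 0.34 (SE), FDR = 0.00109, and in demophoon the log2 fold change was -0.66 (FDR = 0.16). The interaction, 2.45 ± 0.47 on the log2 scale, had FDR = 0.0666 and did not pass the threshold. The call at 50% was lost without animal 2, 4, 5, 7 or 8 (FDR 0.0616 to 0.0728), and that at 70% without animal 11, 12, 13, 14 or 15 (FDR 0.062 to 0.101) and with sex in the model (FDR = 0.119). Both were lost with the regions summed per animal (FDR = 0.0519 and 0.0556), and that at 50% also when only the 8 libraries compared were fitted (FDR = 0.0541). The anterior hindwing means had the same order at each stage, and neither difference passed the test (-0.98, FDR = 0.0858, and 0.92, FDR = 0.11).

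Among the other loci with large differences at 70%, MSTRG.20971 (gene model 420) held 106, 114, 115 and 420.3 CPM in cyrbia and 40.1, 37.4, 34.0 and 50.6 CPM in demophoon main wings. Cyrbia animal 12 was far above the rest. The other 3 cyrbia libraries were also above all demophoon libraries, which the rule for naming this locus required. The difference was 2.23 ± 0.44 (SE), FDR = 0.00598, at 70% and -0.30 ± 0.42 (SE), FDR = 0.73, at 50%, and the call at 70% held with each animal left out. MSTRG.21108 (gene model 529) held 28.6, 22.2, 26.4 and 31.1 CPM in cyrbia and 6.11, 5.07, 6.41 and 11.6 CPM in demophoon, a difference of 1.90 ± 0.42 (SE), FDR = 0.0104. MSTRG.20446 (gene model 50) held 2.64, 9.25, 4.53 and 4.49 CPM and 0.356, 1.41, 1.11 and 1.78 CPM, a difference of 2.17 ± 0.47 (SE), FDR = 0.0104. For neither did the groups overlap, which the rule for naming these loci required. Both calls were lost with sex as a covariate (FDR = 0.0728 and 0.0668). MSTRG.21045 (gene model 474) had no count in any cyrbia main wing library at 70% and a mean of 1.38 CPM in demophoon, which is at least 11-fold lower in cyrbia against a floor of 3 counts per library (FDR = 0.0184). The bound was 7-fold without demophoon animal 15, and the call was lost without that animal (FDR = 0.0506) and with the regions summed per animal (log2 fold change -3.67, FDR = 0.148). For the anterior hindwing, where 2 of 4 cyrbia libraries held counts, the difference was -3.34 ± 1.59 (FDR = 0.23). MSTRG.20699 (gene model 223) had no count in any cyrbia anterior hindwing library at 70% and 3.84, 0.0665, 1.36 and 0.0892 CPM in demophoon, at least 12-fold lower in cyrbia by the same floor, and at least 4-fold lower without demophoon animal 13. Of the 4 demophoon libraries 2 lay below that floor of 0.108 CPM. Its call there (FDR = 0.0245) was lost without animal 9, 10, 12 or 13, at FDR values of 0.052 to 0.0589, and with sex in the model (FDR = 0.0619).

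At 50% the largest differences in the main wing were in loci of low count. MSTRG.20582 (gene model 137) held 0.108, 0, 0.0700 and 0 CPM in cyrbia and 5.07, 2.26, 0.706 and 2.46 CPM in demophoon, -5.70 ± 1.22 (SE), FDR = 0.00934. MSTRG.21401 (gene model 704) held 1.11, 0, 0.630 and 0.643 CPM and 5.85, 1.44, 9.15 and 8.55 CPM, -3.39 ± 0.83 (SE), FDR = 0.0195, and rose at 70% to 84.0 ± 65.5 CPM in cyrbia and 202 ± 66.2 CPM in demophoon, where the subspecies difference had FDR = 0.32. Its call at 50% was lost when only the 8 libraries compared were fitted (FDR = 0.0776). MSTRG.21236 (gene model 605) had no count in the 4 demophoon main wing libraries at 50% and 0.271, 0.341, 0.607 and 1.14 CPM in cyrbia, at least 4-fold higher against the floor of 3 counts per library. Of the loci higher in cyrbia, MSTRG.20777 (gene model 279) held 4.98, 5.42, 4.97 and 18.8 CPM against 2.56, 1.13, 1.29 and 2.15 CPM, 2.25 ± 0.45 (SE), FDR = 0.00666, with animal 4 well above the other cyrbia animals. MSTRG.21370 (gene model 685) held 8.10, 1.25, 4.43 and 1.82 CPM against 0.167, 0, 0.353 and 0 CPM, 4.75 ± 1.27 (SE), FDR = 0.0292. The call of MSTRG.21370 was lost without animal 1, 3, 5, 6 or 8 (FDR 0.051 to 0.0743), and that of MSTRG.20582 held throughout in the main wing. The loci lower in cyrbia included MSTRG.20699, at 2.86, 0.616, 1.21 and 0.104 CPM in demophoon and at most 0.0467 CPM in cyrbia (FDR = 0.0331), a call lost without animal 1, 2, 3, 4, 5 or 7 (FDR 0.0548 to 0.0845), with sex in the model (FDR = 0.0552) and with the regions summed per animal (FDR = 0.0753).

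In the anterior hindwing at 50%, MSTRG.20771 (gene model 274) held 0.332, 0.508, 0.733 and 0.561 CPM in cyrbia and 12.8, 1.13, 9.67 and 1.33 CPM in demophoon, -3.56 ± 0.86 (SE), FDR = 0.0167. Its call was lost without demophoon animal 5 (FDR = 0.0505). MSTRG.20505 (gene model 85) held 15.6, 1.68, 5.24 and 14.4 CPM and 47.5, 37.7, 27.1 and 39.1 CPM, -2.05 ± 0.49 (SE), FDR = 0.0155, a call lost when only the 8 libraries compared were fitted (FDR = 0.0733). Both were lower in every cyrbia library than in any demophoon library, which the rule for naming these loci required. MSTRG.20769 (gene model 272) was lower in cyrbia too, -2.23 ± 0.48 (SE), FDR = 0.00874, and MSTRG.21238 (gene model 606) was higher, 1.54 ± 0.27 (SE), FDR = 0.00232. At 70% MSTRG.21153 (gene model 559) held 31.5, 22.8, 39.9 and 30.3 CPM in cyrbia and 102, 73.5, 77.8 and 78.3 CPM in demophoon, -1.39 ± 0.27 (SE), FDR = 0.00519. MSTRG.20866 (gene model 349), a DE locus of the main wing at 50%, was higher in cyrbia by 1.09 ± 0.31 (SE), FDR = 0.04, and lost its call without animal 1, 3, 4, 5, 7 or 8 (FDR 0.0514 to 0.114), with sex in the model (FDR = 0.0659), when low counts were not filtered (FDR = 0.0516) and with only the 8 libraries (FDR = 0.0964). MSTRG.21343 (gene model 670) held 9.20, 7.30, 5.09 and 10.7 CPM in cyrbia and 27.6, 30.7, 18.4 and 35.2 CPM in demophoon main wings at 70%, -1.78 ± 0.42 (SE), FDR = 0.0151, a call lost with sex in the model (FDR = 0.0643) and with the regions summed (FDR = 0.0745).

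Most loci called at 50% were not called at 70%. A call at only 1 stage does not by itself show that the subspecies difference changed between stages. The interaction was called for 1 of 578 loci in the main wing and 0 of 584 in the anterior hindwing. In the main wing 6 loci were shared, 28.6% of those at 50% and 30.0% of those at 70%, where over all loci the shared calls were 44.1 and 46.6%. Of the 6, 2 were higher and 3 lower in cyrbia at both stages, and MSTRG.20539 changed direction. In the anterior hindwing 5 were shared, 16.7 and 20.0%, all with 1 direction, against 42.3 and 49.9% over all loci. The difference of these shares from all loci was not tested, and no such share was computed over annotated loci alone.

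Along the scaffold the subspecies calls were thinly spread. In bins of 50 gene models, each with 35 to 46 tested loci, 0 to 4 loci were DE per bin in the main wing at either stage. At 50% the bins of gene models 651 to 700 and 701 to 748 held 4 DE loci each, 3 of them lower in cyrbia in each bin. At 70% the bin of gene models 1 to 50 held 4 of 36 tested (11.1%), all higher in cyrbia. In the anterior hindwing at 70% it held 6 of 36 (16.7%), all higher. All tested loci gave 9.17 and 9.64% in these 2 comparisons in either direction, and annotated loci 6.06 and 6.15%. Those higher in cyrbia were 3.25 and 3.46% of all tested loci. At 50% the same bin held 1 higher and 1 lower locus in the main wing, and 3 higher and 1 lower in the anterior hindwing. The bins were described and not tested. The 6 loci of the anterior hindwing at 70% included MSTRG.20398, MSTRG.20400, MSTRG.20409 and MSTRG.20446 (gene models 18, 21, 26 and 50). MSTRG.20428 (gene model 42) and MSTRG.20443 (gene model 49), which complete the 6 and were named after their values were seen, had log2 fold changes of 0.68 and 1.13 (FDR = 0.0298 and 0.00954). With sex in the model MSTRG.20398, MSTRG.20409, MSTRG.20428 and MSTRG.20443 lost their calls there (FDR 0.0819 to 0.122), and MSTRG.20428 lost it without animal 9, 10, 12, 13, 14 or 15 (FDR 0.0519 to 0.0987) and MSTRG.20398 without animal 11, 13 or 14 (FDR 0.053 to 0.0603). Fitting only the 8 libraries lost both (FDR = 0.0591 and 0.0998), and MSTRG.20428 also had FDR = 0.0615 with no filter. The median log2 fold change of all tested loci in that bin was 0.42 at 50% and 0.26 at 70% in the main wing, and 0.53 and 0.13 in the anterior hindwing. No run of 3 or more neighbouring tested loci was DE in 1 direction between subspecies in any of the 4 comparisons. Over the annotated loci of the other scaffolds 6 or 7 loci lay in such runs in each. These were only 0.0689 to 0.0819% of the 8548 or 8710 loci tested there, and the absence here was not tested against that share.

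Stage differences were far more common than subspecies differences. In the main wing 209 of 578 chromosome 20 loci were DE between 50% and 70% in cyrbia, 94 higher and 115 lower at 70%. In demophoon 237 were DE, 122 higher and 115 lower. These were 36.2 and 41.0% of the tested loci. Of all tested loci 26.1% were DE in cyrbia (12.3% higher, 13.7% lower) and 28.1% in demophoon (15% higher, 13.1% lower), and of the annotated loci 34.3 and 36.8%, so the chromosome 20 share was nearer to that of annotated loci. The median log2 fold change was -0.07 in cyrbia and -0.03 in demophoon, against -0.02 and 0.05 over all loci. In the anterior hindwing 192 of 584 were DE in cyrbia (105 higher, 87 lower), or 32.9%, and 186 in demophoon (101 higher, 85 lower), or 31.8%. All loci gave 24.3% in cyrbia (12.4% higher, 11.9% lower) and 23.1% in demophoon (12.9% higher, 10.2% lower), and annotated loci 32.5 and 30.4%. The libraries were numbered by stage, so a stage difference cannot be told apart from library order.

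The subspecies, which share no libraries in these contrasts, shared most of their stage calls. In the main wing 165 loci were DE in both, 79.0% of the cyrbia calls and 69.6% of the demophoon calls, with 73 higher at 70% in both, 91 lower in both and MSTRG.21177 alone in opposite directions. Over all loci the shared calls were 69.7 and 64.7%. For the anterior hindwing 129 were shared, 67.2 and 69.4%, with 72 higher and 57 lower in both, against 64.1 and 67.2% over all loci.

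**Figure D3:**
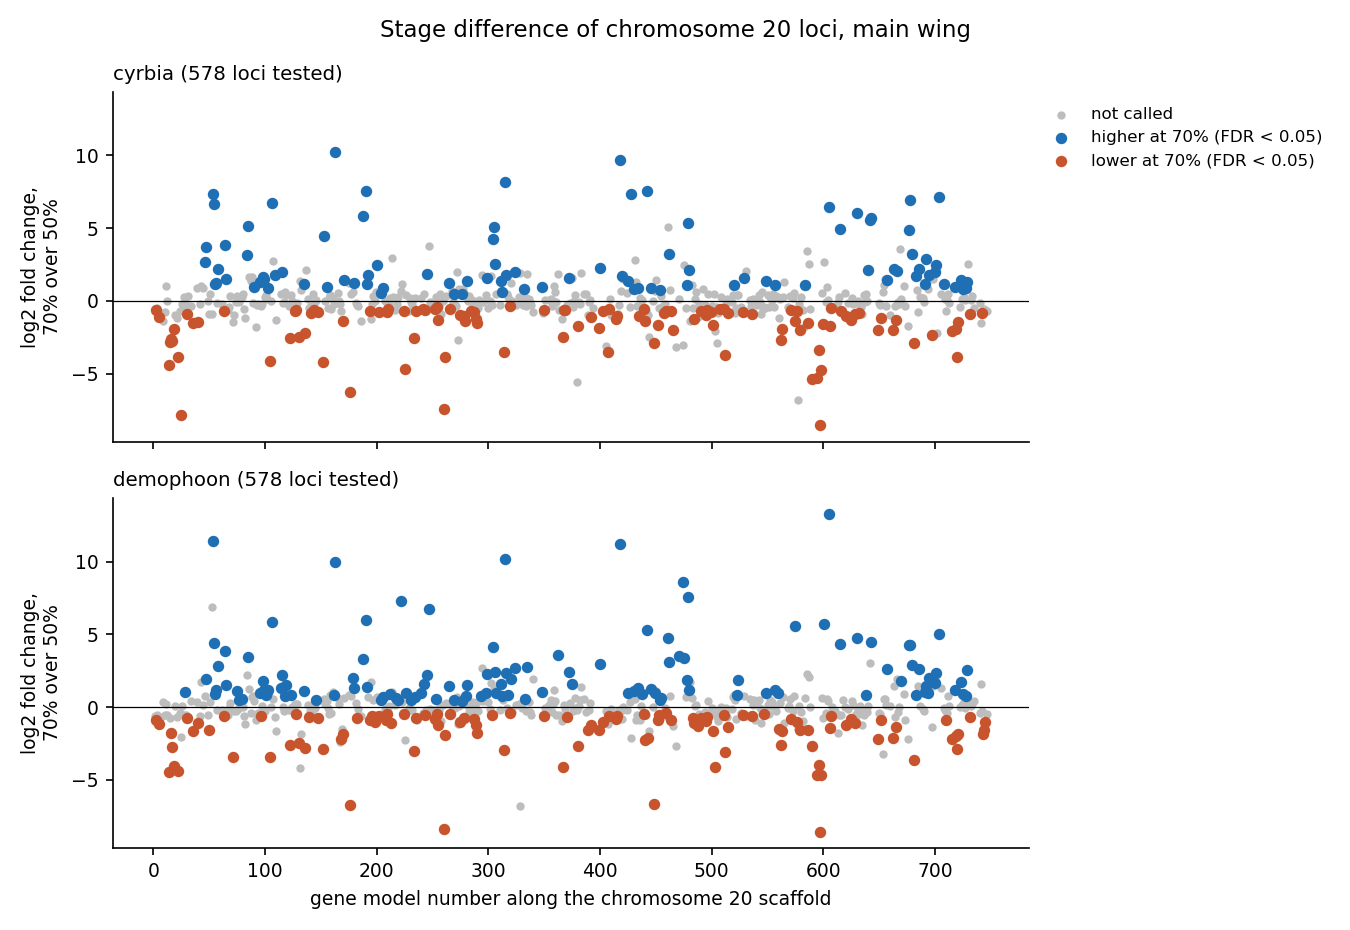
Log2 fold change of 70% over 50% in the main wing for the 578 tested chromosome 20 loci, against gene model number, in cyrbia (upper) and demophoon (lower). Blue points rose and orange points fell (209 DE loci in cyrbia, 237 in demophoon); the lowest points near gene models 590 to 598 form a group of neighbouring loci that fell in both subspecies.

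A run of 5 neighbouring tested loci at gene models 590 to 598 was lower at 70% in both subspecies and both wing regions. MSTRG.21222 (gene model 597) fell the most. Its main wing libraries held 3460.0, 2584, 3201 and 2936 CPM in cyrbia at 50% and 12.0, 7.85, 3.61 and 9.13 CPM at 70%. In demophoon they held 2385, 1577, 1326 and 3051 CPM and 2.24, 7.50, 5.12 and 6.90 CPM. The lowest library at 50% was far above the highest at 70%, and the log2 fold changes were -8.54 ± 0.53 (SE), FDR = 4.1e-08, in cyrbia and -8.57 ± 0.53 (SE), FDR = 3.4e-08, in demophoon. MSTRG.21215 (gene model 594) fell from 3701 ± 652 to 94.3 ± 13.3 CPM in cyrbia (SD, n = 4), -5.29 ± 0.26 (SE), FDR = 3.9e-09. In demophoon it fell from 3396 ± 574 to 133 ± 32.2 CPM, -4.67 ± 0.25 (SE), FDR = 8.3e-09. MSTRG.21225 (gene model 598) fell from 2403 ± 1305 to 90.0 ± 17.3 CPM in cyrbia and from 2596 ± 874 to 101 ± 3.89 CPM in demophoon, with log2 fold changes of -4.74 and -4.67. These 3 loci were among the 8 with the highest mean CPM on the scaffold. The other members of the run were at lower CPM. MSTRG.21206 (gene model 590) held 26.1, 20.0, 8.17 and 14.9 CPM in cyrbia at 50% and 0.302, 0.130, 0.127 and 1.00 CPM at 70%, -5.38 ± 0.89 (SE), FDR = 0.00038, and in demophoon -2.67 ± 0.77 (FDR = 0.0174). MSTRG.21220 (gene model 596) had log2 fold changes of -3.34 and -3.96. None of the 5 was DE between subspecies at either stage in either wing region, with main wing FDR values of 0.11 for MSTRG.21206 at 70% and 0.18 for MSTRG.21215 at 70%. MSTRG.21222 had a mean of 3045 ± 374 CPM at 50% in cyrbia, against 2085 ± 787 CPM in demophoon.

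**Figure D4:**
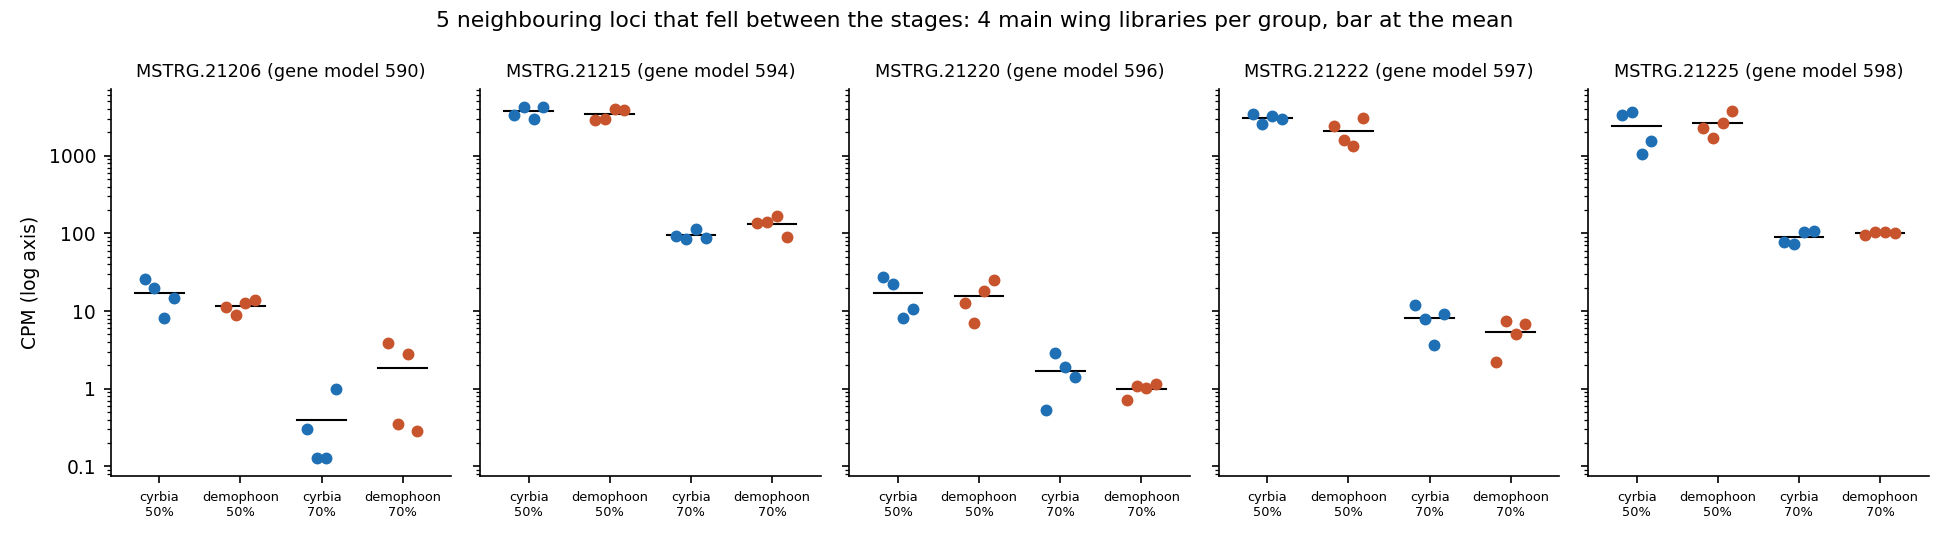
CPM (log axis) of the 5 neighbouring loci at gene models 590 to 598 in the 16 main wing libraries; each point is a library, bars are group means, blue is cyrbia and orange demophoon. In each panel all 8 libraries at 50% lie above all 8 at 70%.

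Several other runs were shared between subspecies. At gene models 53 to 56, 4 neighbouring loci (MSTRG.20450 to MSTRG.20455) were higher at 70% in the main wing of both subspecies, with log2 fold changes of 1.18 to 7.34 in cyrbia and 0.91 to 11.44 in demophoon. At gene models 14 to 18, 5 neighbouring loci (MSTRG.20389 to MSTRG.20398) were lower at 70% in the cyrbia main wing, at -4.38 to -1.89, and 3 of the 5 formed a run in demophoon, at -4.04 to -1.79. MSTRG.20389 (gene model 14) held 739, 813, 2996 and 2206 CPM in cyrbia at 50% and 60.2, 182, 30.3 and 48.2 CPM at 70%. Runs of 3 loci, named after their values were seen, at gene models 478 to 480 (MSTRG.21051 to MSTRG.21053) and 677 to 679 (MSTRG.21357 to MSTRG.21361) were higher at 70% in all 4 stage comparisons. In the main wing there were 10 runs of 3 or more loci in cyrbia, holding 36 loci (6.23% of those tested, against 4.76% of the tested annotated loci of the other scaffolds), and 11 in demophoon, holding 37 (6.40%, against 6.10%). The anterior hindwing had 13 runs in cyrbia with 45 loci (7.71%, against 4.46%) and 5 in demophoon with 17 (2.91%, against 3.83%). These shares were described and not tested.

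The loci that rose the most had next to no reads at 50%. MSTRG.20615 (gene model 163) held 0.0813, 0.454, 0 and 0 CPM in the cyrbia main wing at 50% and 160.3, 234, 159.7 and 115 CPM at 70%. In demophoon it held 0.0743, 0, 0.412 and 0 CPM and 104, 112, 109 and 220.5 CPM. No main wing library at 50% was above 0.454 CPM, and the log2 fold changes, which at such low levels depend on the prior count, were 10.25 ± 1.06 (SE), FDR = 5.4e-06, and 9.96 ± 1.06 (SE), FDR = 6.1e-06. MSTRG.20824 (gene model 315) rose from 0.327 ± 0.194 to 95.8 ± 47.1 CPM in cyrbia and from 0.106 ± 0.140 to 148 ± 48.7 CPM in demophoon (SD, n = 4). MSTRG.21236 held 17.1, 40.1, 18.9 and 67.3 CPM in the demophoon main wing at 70% and no count at 50%, at least 270-fold higher at 70% against the floor of 3 counts per library. MSTRG.20450 (gene model 53) likewise had no count in demophoon at 50% and 4.12, 8.82, 4.63 and 23.1 CPM at 70%, at least 76-fold higher, and at least 44-fold without demophoon animal 16. MSTRG.21009 (gene model 442) had no count in the demophoon anterior hindwing at 50% and 4.04, 7.29, 0.464 and 15.9 CPM at 70%, at least 97-fold higher, and at least 55-fold without animal 16.

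Among the loci that fell, MSTRG.20638 (gene model 176) held 944, 1196, 2896 and 2832 CPM in the cyrbia main wing at 50% and 13.9, 30.6, 37.9 and 21.1 CPM at 70%, -6.24 ± 0.45 (SE), FDR = 1.7e-07. In demophoon the values were 2010.0, 1814, 2212 and 1325 CPM and 16.1, 17.5, 18.2 and 17.2 CPM, -6.73 ± 0.46 (SE), FDR = 7.7e-08. The stages were wholly apart in both subspecies, which the rule for naming this locus required. MSTRG.20756 (gene model 260) was uneven between animals at 50%, with 138, 64.4, 8.49 and 12.7 CPM in cyrbia and 27.8, 17.1, 24.1 and 107 CPM in demophoon, and lay between 0 and 0.456 CPM in every main wing library at 70%. MSTRG.21018 (gene model 448) fell in demophoon, with a log2 fold change of -6.65 ± 1.22 (SE), FDR = 0.00078, in the main wing.

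Stage calls were present in every part of the scaffold. Per bin of 50 gene models 8 to 18 loci were DE in cyrbia and 10 to 21 in demophoon, in the main wing. The share of tested loci called ran from 22.9 to 44.7% per bin in cyrbia and from 26.8 to 55.3% in demophoon. The bin of gene models 1 to 50 held 12 lower and 2 higher loci in cyrbia and 11 lower and 2 higher in demophoon, whereas the next bin, 51 to 100, held 13 higher and 1 lower in cyrbia and 14 higher and 3 lower in demophoon. Gene models 651 to 700 held 12 higher loci in each subspecies, with 5 lower in cyrbia and 4 in demophoon. Not every bin was one-sided. Gene models 401 to 450 held 8 higher and 9 lower loci in cyrbia, and 8 higher and 8 lower in demophoon. Of all tested loci 12.3% were higher and 13.7% lower in cyrbia, and 15% were higher and 13.1% lower in demophoon. The bins were described and not tested.

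The 8 chromosome 20 loci with the highest mean CPM, by reads drawn, were MSTRG.21304, MSTRG.21255, MSTRG.21215, MSTRG.21071, MSTRG.21225, MSTRG.20728, MSTRG.21222 and MSTRG.20577. MSTRG.21304 (gene model 649) held 3629, 3127, 12520.0 and 9460.0 CPM in cyrbia main wings at 50% and 6394, 4622, 5169 and 3123 CPM in demophoon. At 70% it held 1456, 3428, 1350.0 and 1063 CPM and 582, 1426, 607 and 1656 CPM. Cyrbia animals 3 and 4 stood above animals 1 and 2 at 50%. The log2 fold change between stages was -1.97 ± 0.52 (FDR = 0.0106) in cyrbia and -2.17 ± 0.52 (FDR = 0.00562) in demophoon. MSTRG.20577 (gene model 135) went from 722 ± 156 to 1644 ± 352 CPM in cyrbia and from 671 ± 91.3 to 1420.0 ± 219 CPM in demophoon, with log2 fold changes of 1.20 ± 0.21 (SE), FDR = 0.00069, and 1.09 ± 0.21 (SE), FDR = 0.00134. None of the 8 was DE between subspecies in the main wing at either stage.

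Few chromosome 20 loci were called between wing regions. With the animal as a block, edgeR called 1 of 594 chromosome 20 loci in cyrbia at 50% (0.168%, against 0.186% of all tested loci) and 4 at 70% (0.673%, against 0.252%). In demophoon it called 1 at 50% (0.168%, against 0.0985%) and 4 at 70% (0.673%, against 0.367%). Of the annotated tested loci 0.244 and 0.407% were called in cyrbia at 50% and 70%, and 0.163 and 0.59% in demophoon. Without the replicate block no chromosome 20 locus was called in any of the 4 comparisons, and DESeq2 called 24, 30, 8 and 37. In the blocked edgeR fit 14.3 and 19.5% of chromosome 20 loci had an unadjusted p under 0.05 in cyrbia at 50% and 70%. All tested loci gave 11.1 and 10.3% there, and annotated loci 15.2% at either stage. In demophoon these shares were 9.60 and 17.2%, against 7.59 and 10.35% of all loci and 9.59 and 15.2% of annotated ones. MSTRG.21051 (gene model 478) was higher in the main wing of cyrbia at both stages. At 70% cyrbia held 282, 289.6, 345 and 306 CPM in the main wing and 216, 152, 239.6 and 252 CPM in the anterior hindwing of the same animals. The main wing was higher in every animal, 0.53 ± 0.11 (SE), FDR = 0.0451. This call was lost without any 1 of the 4 animals (FDR 0.09 to 0.178), and leaving out any of them left 0 or 1 locus called in cyrbia at 70%. At 50% it was higher in all 4 animals too, 0.57 ± 0.11 (SE), FDR = 0.039, a call lost without animal 1, 2 or 4 (FDR 0.0956 to 0.141) and under RLE normalization (FDR = 0.0546). In demophoon the log2 fold change at 70% was 0.11 ± 0.11 (FDR = 0.87). MSTRG.20517 (gene model 94) held 2.64, 2.48, 2.78 and 3.48 CPM in the main wing and 1.64, 1.01, 0.889 and 0.858 CPM in the anterior hindwing of cyrbia at 70%, 1.41 ± 0.25 (SE), FDR = 0.0191, a call lost without animal 10, 11 or 12 (FDR 0.0584 to 0.187). MSTRG.20662 (gene model 191) was also higher in the main wing of cyrbia at 70%, 0.71 ± 0.13 (SE), FDR = 0.0245, and lost its call without any 1 of the 4 animals (FDR 0.0717 to 0.148). MSTRG.21310 (gene model 651) was lower in the main wing, with 40.6, 52.5, 24.9 and 41.8 CPM against 72.9, 89.1, 49.0 and 68.5 CPM, -0.82 ± 0.14 (SE), FDR = 0.016, and lost its call without animal 9 or 11 (FDR 0.0848 and 0.115).

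In demophoon at 70% MSTRG.21222 was still detectable at 2.24, 7.50, 5.12 and 6.90 CPM in the main wing and 1.66, 2.33, 0.795 and 2.23 CPM in the anterior hindwing. The main wing was higher in all 4 animals, 1.60 ± 0.28 (SE), FDR = 0.0236, and the call was lost without animal 14, 15 or 16 (FDR 0.0526 to 0.195). MSTRG.20641 (gene model 179) was at 8.53 ± 1.39 CPM in the main wing and 4.38 ± 0.431 CPM in the anterior hindwing, 0.95 ± 0.17 (SE), FDR = 0.0254, and lost its call without animal 13, 14 or 15 (FDR 0.0606 to 0.195). The remaining 2 calls at 70%, named after their values were seen, were MSTRG.20963 and MSTRG.21296 (gene models 418 and 643), with FDR = 0.0491 and 0.0474. Both were lost without animal 13, 14 or 15 (FDR 0.0863 to 0.335 and 0.117 to 0.364), and DESeq2 did not call MSTRG.20963 (adjusted p = 0.693). Without a filter on low counts MSTRG.21296 had FDR = 0.0583. At 50% the call of demophoon was MSTRG.20450, with no count in the main wing and 1.28, 0.839, 0 and 0.586 CPM in the anterior hindwing (FDR = 0.00746), lost without animal 5 (FDR = 0.12).

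The level of the whole chromosome was compared as the median log2 CPM of 320 chromosome 20 loci minus that of 4566 annotated loci of the other autosomes, over loci with a mean log2 CPM above 3, averaged over both wing regions of an animal. At 50% the cyrbia animals were at 0.166, 0.176, 0.15 and 0.158 and the demophoon animals at 0.056, 0.118, 0.082 and 0.149. All 4 cyrbia animals lay above the 4 demophoon animals, with means of 0.162 ± 0.011 and 0.101 ± 0.041 (SD, n = 4), and a difference of 0.061 on the log2 scale (exact permutation test, two-sided p = 0.0286, the smallest this design can give). At 70% the cyrbia animals were at 0.222, 0.247, 0.184 and 0.147 and the demophoon animals at 0.16, 0.118, 0.188 and 0.117, which overlap, a difference of 0.054 (exact permutation p = 0.143). Over both stages the difference was 0.058 with 8 animals each (exact permutation p = 0.00995), with the labels permuted over all 16 animals. Permuting them within each stage, a test added after seeing the data, gave an exact permutation p = 0.00694, where 0.000408 is the smallest that its 4900 arrangements can give. Adjusted over the 3 tests by the Benjamini-Hochberg method the values were 0.0429 at 50%, 0.143 at 70% and 0.0299 over both stages. With loci down to a mean log2 CPM of 0 the differences were 0.017 at 50% (exact permutation p = 0.629) and 0.046 over both stages (exact permutation p = 0.115), and the calls were lost. The call at 50% was also lost with RLE normalization (difference 0.0611, exact permutation p = 0.0571) and in the main wing libraries only (difference 0.0507, exact permutation p = 0.114). Whether the sexes bear on it was not tested; males made up 6 of 8 cyrbia animals and 2 of 8 demophoon animals.

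**Figure D5:**
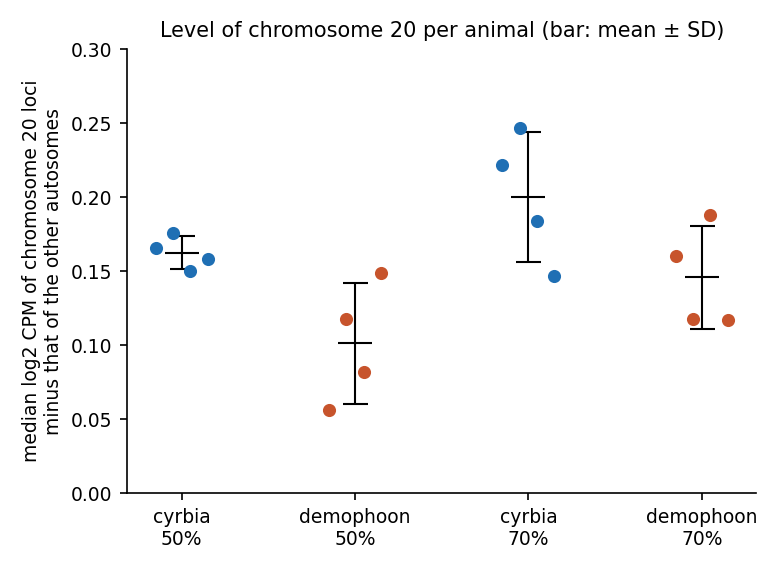
Median log2 CPM of chromosome 20 loci minus that of the other autosomes for each animal (points), with group mean and SD (bars). Cyrbia lay at 0.147 to 0.247 and demophoon at 0.056 to 0.188, and the groups were apart at 50% but overlapped at 70%.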

How the data were processed

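RNA was sequenced from 32 libraries of 16 animals in 8 groups of 4. The deposited table holds read counts per locus, which the authors made with Trimmomatic 0.38, HISAT2 2.1.0, SAMtools 1.9 and StringTie 1.3.5 per the labels, with no normalization; the genome build, annotation release and strand setting were not given in the sources used here. StringTie counts are estimates, and loci can share reads. Subspecies was read from the organism label. All columns were mapped to samples by name.

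Counts were filtered by expression and TMM-normalised, and fitted with edgeR 4.0.16 (quasi-likelihood, limma 3.58.1, R 4.3.3) on the whole table, separately for the 16 main wing and the 16 anterior hindwing libraries, with Benjamini-Hochberg adjustment over all tested loci and an FDR threshold of 0.05. Wing regions were compared over all 32 libraries in a fit blocked by animal, because each animal gave both libraries; their deviations from group means correlated at 0.443 to 0.727 over the 16 animals. No 2 libraries of a group agreed within sampling noise (lowest chi-square per degree of freedom 97.6). The level of the chromosome was tested by exact permutation over animals with scipy 1.17.1 (Python 3.11.15). Fits were tested on simulated data. P-values measure the spread between these animals. In the fit blocked by animal this is the spread, between animals, of the difference between their 2 wing regions.

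Loci named were, per subspecies and stage comparison and direction, the 4 with the largest fold change among DE loci with groups that did not overlap and a mean of at least 1 CPM in the higher group; those DE in all 4 subspecies comparisons; those with an interaction call; per wing region comparison the 2 per direction with the lowest FDR; the 8 with the highest mean CPM; and the ends of the longest runs. Other loci named were chosen after their values were seen. The loci, rules and lists were chosen with earlier results of these data known. Marker and gene lists were not applied, because identifiers are not paired with names. Alternatives were RLE normalization, no filter on low counts, DESeq2 1.42.0, sex as a covariate, only the 8 libraries compared, regions summed per animal, no replicate block, each animal left out, bins of 25 gene models, and other settings of the chromosome level. Permuting labels within stage was added after seeing the data.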

Additional observations from a re-analysis of the deposited data

Results flagged for a closer look

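The screen covered 131 groups of 4 values, from libraries of the named loci and from the chromosome levels of the animals. Of these, 11 held a value far from the other 3 by Dixon's test, where chance gives about 1 in 20 groups. All 11 were libraries of named loci. The groups were not independent, because both wing regions came from the same animals. For MSTRG.20971, cyrbia animal 12 at 70% was at 420.3 CPM in the main wing (others 106.3 to 114.9) and at 271.4 CPM in the anterior hindwing (others 75.27 to 93.03). For MSTRG.20756, demophoon animal 8 at 50% was at 106.8 CPM in the main wing (others 17.14 to 27.8) and at 139.1 CPM in the anterior hindwing (others 14.86 to 24.1). In both loci, as in MSTRG.21296, the same animal stood out in both wing regions. For MSTRG.21296, demophoon animal 14 at 70% was at 31.36 CPM in the main wing (others 0.889 to 6.011) and at 9.009 CPM in the anterior hindwing (others 0.5796 to 1.821). For MSTRG.20443, cyrbia animal 11 at 70% was at 23.84 CPM in the anterior hindwing (others 17.36 to 17.86). For MSTRG.20615, demophoon animal 16 at 70% was at 220.5 CPM in the main wing (others 104.4 to 111.8). For MSTRG.20777, cyrbia animal 4 at 50% was at 18.77 CPM in the main wing (others 4.97 to 5.423). For MSTRG.21153, demophoon animal 13 at 70% was at 102.5 CPM in the anterior hindwing (others 73.49 to 78.26). For MSTRG.21467, cyrbia animal 10 at 70% was at 4.299 CPM in the main wing (others 2.564 to 2.834), still below every demophoon library.

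The subspecies difference of MSTRG.21177 changed between stages in the main wing, with an interaction of -6.979 on the log2 scale (edgeR quasi-likelihood FDR = 0.00039). All 4 demophoon libraries at 70% were above all other main wing libraries.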

How the results depend on the processing

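The 85 named results kept their direction under every alternative, 52 of them stayed DE under all and 33 lost their call under at least 1. All were chosen as DE in these same data, and most also for large fold changes without overlap. A kept direction was therefore close to fixed by that choice. Of 185 alternative counts of DE loci, 143 were within 1.5 times the reported count, including every stage count. DESeq2 called 55 and 47 loci for the subspecies difference at 50% and 70% in the main wing and 67 (43 higher, 24 lower, where edgeR gave 14 and 16) and 46 in the anterior hindwing, 12 and 17 for the interactions, and 24, 30, 8 and 37 for the wing regions of cyrbia at 50% and 70% and demophoon at 50% and 70%. Fitting only the 8 libraries compared gave 13 for the main wing at 50% and 18 for the anterior hindwing. Summing the regions per animal gave 33 at 50% and 33 at 70%. With sex as a covariate there were 9 for the main wing at 70% and 11 for the anterior hindwing. No share over all loci is given for these alternative counts. RLE normalization gave 0 wing region calls in cyrbia at 50% and 8 in demophoon at 70%.

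Without the replicate block, 0 loci were DE between regions in each of the 4 groups (cyrbia at 50% and 70%, demophoon at 50% and 70%). With the block in a fit of only the 8 libraries, 0 were DE in cyrbia at 50% and in demophoon at 50% and 70%. MSTRG.20450, the demophoon call at 50%, had no value in that fit, so its call was not tested there.

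Leaving out 1 animal gave 12 to 22 loci for the subspecies difference at 50% and 12 to 29 at 70% in the main wing, and 20 to 34 and 12 to 23 in the anterior hindwing. Stage counts were 166 to 200 in cyrbia and 183 to 215 in demophoon in the main wing, and 162 to 202 and 146 to 159 in the anterior hindwing. Interaction counts were 1 to 2 in the main wing, with 2 without animal 16, and 0 to 1 in the anterior hindwing. Wing region counts were 0 to 2 and 0 to 1 in cyrbia at 50% and 70%, and 0 to 1 and 0 to 6 in demophoon, with 0 without animal 5 at 50% and 0 without animal 14 or 15 at 70%.

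The difference in chromosome level at 50% was 0.017 with loci down to log2 CPM 0, 0.0611 with RLE normalization and 0.0507 in main wing libraries only, and none of these passed the exact permutation test. Over both stages it was 0.0462 down to log2 CPM 0, which did not pass either. Leaving out 1 animal gave 0.0461 to 0.0773 at 50%, where 3 against 4 animals cannot pass, 0.0386 to 0.0718 at 70% and 0.048 to 0.0669 over both stages. In bins of 25 gene models the highest share of stage calls was 64.7%, at gene models 451 to 475 (11 of 17), against 55.3% in bins of 50. The cause of these changes was not tested. Depth limits the loci of low count most, such as those with no count in 1 group.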
